A study of Solanum lycopersicum with 12 samples.

Results

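The P69 cluster is a run of 10 loci on tomato chromosome 8, Solyc08g079840 to Solyc08g079930, chosen by identifier from the 34688 loci of a table of normalized counts. The rule goes by identifier alone and uses no measured value, though the cluster was picked with earlier results of these data known. It was measured in Moneymaker seedlings whose leaves were sprayed with 300 µM piperonylic acid (PA) or with a mock solution on days 7 and 14 after transplantation, and which were harvested on day 15. PA blocks cinnamate 4-hydroxylase, an early enzyme of the pathway that leads to lignin and other plant phenolics. The PA spray also held 0.1% Tween 20, and the mock spray is described only as corresponding to it. Each of 4 groups, PA shoot, mock shoot, PA root and mock root, held 3 samples, each a pool of 4 plants. All plants shared the cultivar, a temperature of 24 °C and 16 h of light, and the roots were not sprayed directly.

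P69 proteins are subtilisin-like serine proteases, or subtilases, that plant cells secrete into the space between cells. They are classed among the pathogenesis-related proteins of tomato, since some of them accumulate after infection or treatment with salicylic acid while others are also made in healthy tissue. P69B, the best known of them, is a target of protease inhibitors that some pathogens secrete, and it takes part in activating another immune protease in the same compartment. The genes lie side by side as a tandem family and their coding sequences are much alike. The reference table lists 6 genes with a P69 symbol or synonym, all on chromosome 8, but pairs 0 of its genes with identifiers of the kind used here. The letter names could therefore not be given to single loci, and the family name of the 10 loci is that of the cluster, not one read from the files.

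The cluster was lowly expressed. It took 65 to 345 reads per library, or 10.4 to 53.1 CPM, the count scaled to the depth of each library, in libraries of 4214169 to 7386030 reads. A 3′-end library gives about one read per transcript whatever its length, so levels of different loci were compared without a length correction. The sources used here do not say how reads that fit several near-identical neighbours were counted, so every split of signal between neighbours is uncertain. The sum over the cluster is less open to this if such reads were given to a neighbour. If they were dropped, they are missing from the single loci and from the sum. One shoot library, mock shoot replicate 1, stood apart from the other 5 on the first principal component of the shoot libraries (-51.1 against -3.61 to 22.4, with 42.2% of the variance), and the shoot results of PA against mock are given with and without it.

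The 10 loci fell into a shoot block, a silent locus and a root pair, in the order of their identifiers. The 7 loci from Solyc08g079840 to Solyc08g079900 made up the whole cluster signal in PA shoots and all but 1 read of it in mock shoots. Solyc08g079910 had 1 read in the 12 libraries together, in PA root replicate 3. Solyc08g079920 and Solyc08g079930, the last 2, held 250 ± 43.7 of the 269 ± 42.6 normalized counts of the cluster in PA roots and 189 ± 51.3 of 204 ± 52.9 in mock roots (SD, n = 3 each). The sums of the cluster in shoot, 261 ± 48.3 in PA and 165 ± 79.5 in mock (SD, n = 3 each), overlapped those in root but were made by different loci. A bulk sample cannot tell fewer cells of a type from less RNA per cell.

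**Figure D1:**
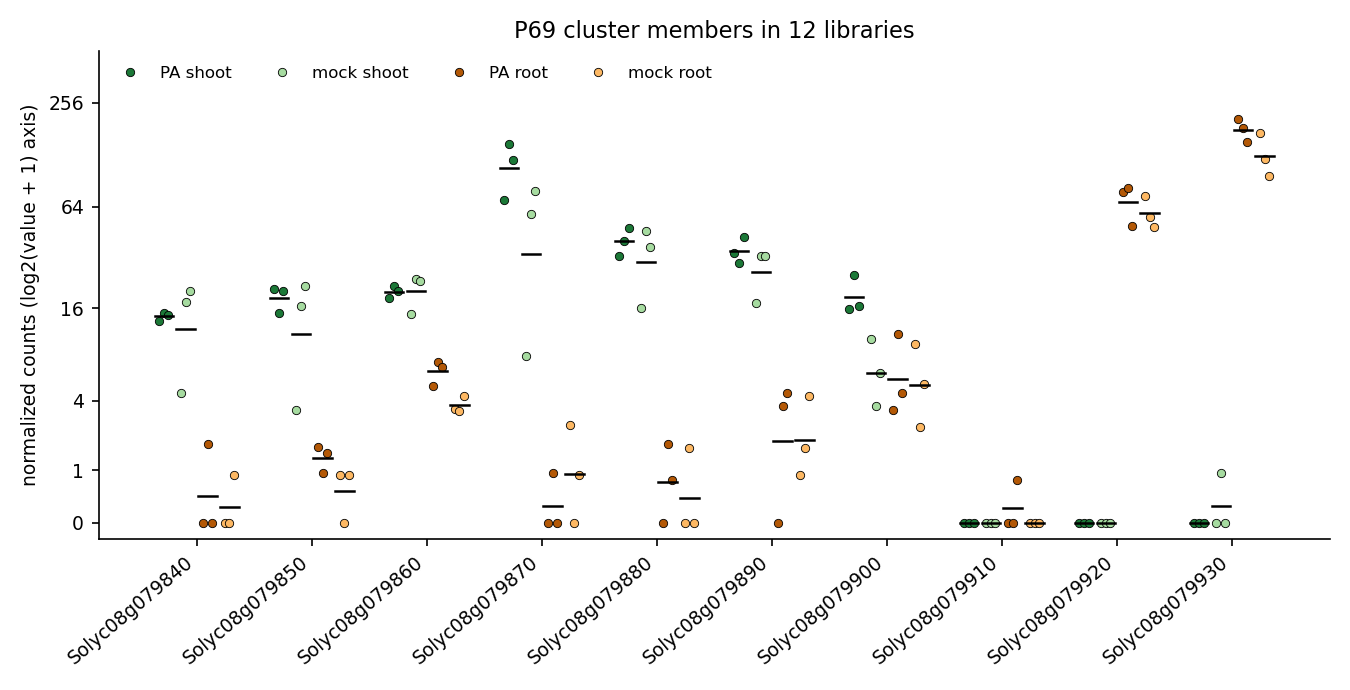
Normalized counts (log2(value + 1) axis) of the 10 loci in 12 libraries, with a point for each library and a line at the mean of the log2 values of each group. The points of Solyc08g079840 to Solyc08g079890 lie higher in shoots, those of Solyc08g079920 and Solyc08g079930 lie at 48.8 to 207 in roots and at 0 to 0.921 in shoots, and Solyc08g079910 is at or near 0 throughout.

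Mock root against mock shoot shows this layout without PA. Solyc08g079930, the most abundant locus of the cluster in root, had 171, 121 and 96.7 normalized counts in mock root replicates 1 to 3, against 0, 0.921 and 0 in mock shoot. From 450 reads in mock root and 1 read in mock shoot, the ratio was 337, with a 95% interval of 60.1 to 13333 that covers counting error only. Its log2 difference was 6.68 ± 0.37 (SE; adjusted p = 2.16e-07 by limma). Solyc08g079920 had 74.4, 55.8 and 48.8 in mock root and 0 in each mock shoot library. Against the 3 reads that a count of 0 allows over the 3 mock shoot libraries, this was at least 51.6-fold higher in mock root, and the log2 difference was 5.90 ± 0.31 (SE; adjusted p = 1.51e-07 by limma). In PA-sprayed plants both loci had 0 reads in the 3 shoot libraries, with 640 reads of Solyc08g079930 and 245 of Solyc08g079920 in the 3 root libraries, at least 162-fold and 62.1-fold higher in PA root than in PA shoot.

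The shoot block ran the other way, with 1 exception. Solyc08g079870, the most abundant locus of the cluster in shoot, had 2.62, 0 and 0.871 normalized counts in mock root replicates 1 to 3, against 8.02, 58.0 and 79.7 in mock shoot, a log2 difference of -4.21 ± 0.79 (SE; adjusted p = 0.00114 by limma). Its groups did not overlap, which was so with mock root lower for 35.1% of all loci tested, though mock shoot replicate 1 was far below the other 2 mock shoots. Solyc08g079880 had 0, 1.69 and 0 in mock root, against 16.0, 46.0 and 37.5 in mock shoot (log2 difference -4.49, limma adjusted p = 4.34e-05). Solyc08g079890 had 0.875, 1.69 and 4.36 in mock root, against 17.2, 33.2 and 32.8 in mock shoot (log2 difference -3.20, limma adjusted p = 0.000163). Both were at a few reads per root library.

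Solyc08g079860 kept the most signal in root among the loci lower there by test, with 3.50, 3.38 and 4.36 normalized counts in mock root against 14.9, 23.9 and 23.4 in mock shoot (log2 difference -2.17, limma adjusted p = 0.000185). Solyc08g079840 and Solyc08g079850 had a mean under 10 over the mock libraries and were not tested. From 1 read in mock root and 36 in mock shoot, Solyc08g079840 was 48.1 times higher in mock shoot (95% counting interval 8.10 to 1952), and from 2 and 35 reads Solyc08g079850 was 23.4 times higher there (6.01 to 201). Solyc08g079900, the last of the shoot block, was the exception, with 9.62, 2.54 and 5.23 in mock root against 10.3, 3.68 and 6.25 in mock shoot. Its 2 groups overlapped, at 20 and 17 reads.

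Of the 10 loci, 6 passed the filter of a mean of at least 10 in this comparison, 2 higher and 4 lower in mock root by test. Each of the 6 passed through the tissue where it was high, so that they differed is no more than the filter lets through, and 66.1% of the 15317 loci tested also differed, 33.6% higher and 32.5% lower in mock root. All log2 differences were taken after adding 1 to each value, which understates the change of loci near 0.

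Within the root pair, Solyc08g079930 exceeded Solyc08g079920 in every root library, by 2.66, 2.24 and 3.06 times in PA root replicates 1 to 3 and by 2.31, 2.17 and 1.98 times in mock root. Their ranges did not overlap in either root group, and both stood apart from the next locus. Below them the order was unsettled. In PA root Solyc08g079860 (6.45 ± 1.18) and Solyc08g079900 (6.35 ± 4.12) came next, and in mock root the same 2 loci stood at 3.75 ± 0.53 and 5.80 ± 3.58 (SD, n = 3 each), with overlapping ranges.

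In PA shoot the order of means began with Solyc08g079870 at 112 ± 39.4, followed by Solyc08g079880 at 40.7 ± 7.70 and Solyc08g079890 at 35.7 ± 6.45 (SD, n = 3 each). The range of the first did not overlap that of the second, while the second and the third overlapped. Solyc08g079860, Solyc08g079900, Solyc08g079850 and Solyc08g079840 came after a further gap, at 20.2 ± 1.77, 19.3 ± 5.30, 18.7 ± 3.25 and 14.3 ± 0.78, and each overlapped its neighbour in this order. In mock shoot the means of the 7 ran from 48.6 ± 36.7 for Solyc08g079870 to 6.75 ± 3.34 for Solyc08g079900, and every neighbouring pair among them overlapped.

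**Figure D2:**
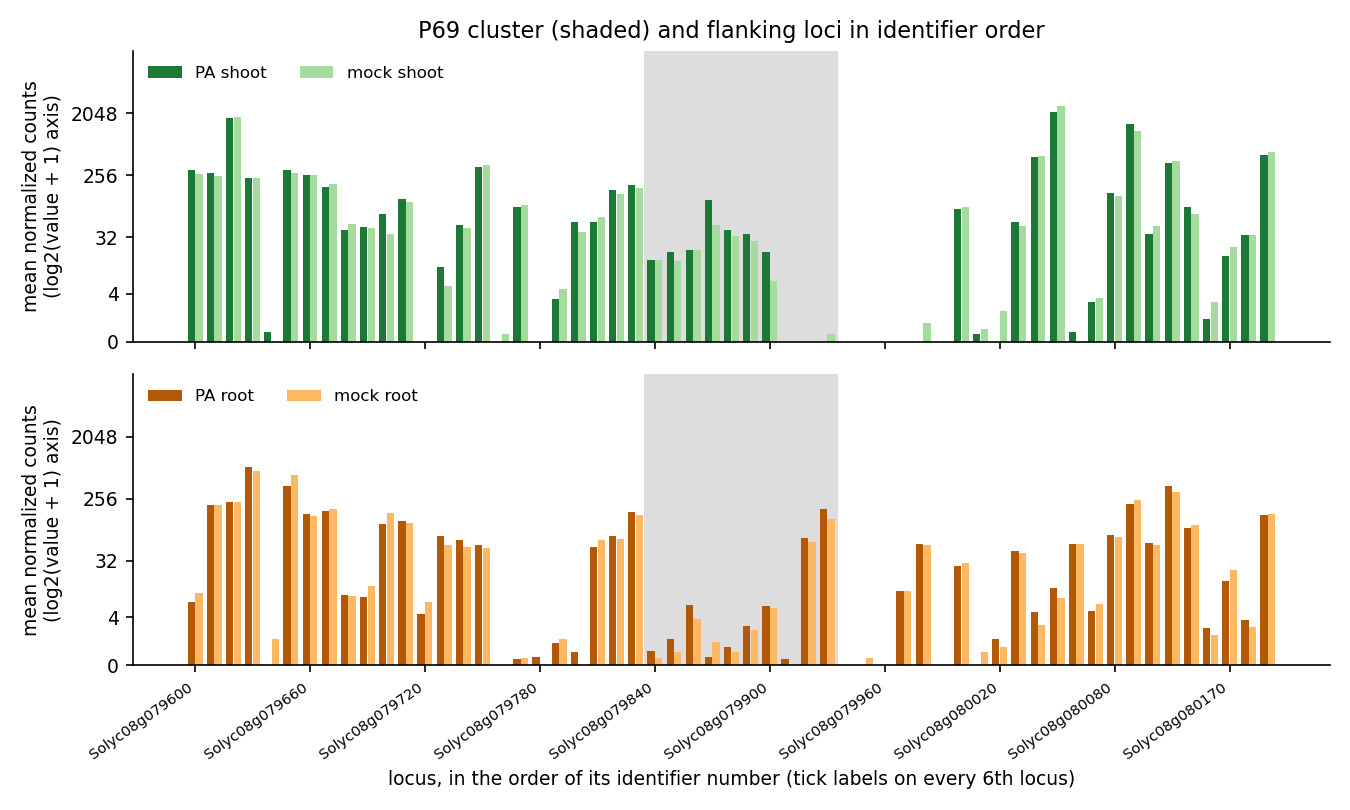
Mean normalized counts (log2(value + 1) axis) of the cluster, shaded, and of 47 flanking loci, in the order of their identifier numbers, for shoots above and roots below, with PA and mock bars side by side. Shoot bars fill the left of the shaded block and end at Solyc08g079900, apart from 1 mock shoot read of Solyc08g079930, and root bars are tallest at its right end.

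The loci around the cluster were set beside it for context. Identifiers of this kind are numbered along the chromosome, and the 47 other loci numbered Solyc08g079600 to Solyc08g080200 were taken as flanks. The nearest on one side, Solyc08g079830, averaged 187 and 167 normalized counts in PA and mock shoot and 167 and 150 in PA and mock root, and differed between the mock tissues by less than the test could call (limma adjusted p = 0.477). On the other side Solyc08g079940 had no read in any library. Of 33 flanks tested between mock tissues, 7 were higher and 17 lower in mock root by limma, against 33.6% and 32.5% of all loci tested. Beyond the silent stretch on that side, Solyc08g079970 averaged 11.0 in PA root and in mock root and 0 in shoots, too low to be tested between tissues. Solyc08g079980 averaged 56.8 in PA root and 54.8 in mock root, against 0 in PA shoot and 0.902 in mock shoot. It was higher in mock root than in mock shoot, with a log2 difference of 4.96 (adjusted p = 3.21e-06 by limma). Further on, Solyc08g080060 averaged 56.9 in PA root and 56.0 in mock root, against 0.409 in PA shoot and 0 in mock shoot. Its log2 difference between the mock tissues was 5.80 (adjusted p = 2.04e-07 by limma). With PA, 0 of 30 tested flanks passed in shoot and 1 of 28 in root, against 1.58% of all loci tested in each tissue. The 1 in root was Solyc08g079650, with a log2 fold change of -0.55 (adjusted p = 0.0323 by limma).

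PA against mock in shoots asked whether the leaf spray moved the shoot block. No locus of it passed over all loci tested, and the highest estimates were those of Solyc08g079870 and Solyc08g079900. By limma 0 of the 7 loci tested were called, against 1.58% of 14505 loci, and edgeR on whole reads also called 0. DESeq2 gave an adjusted p for 1 of the 7, Solyc08g079870, and did not call it. At an unadjusted limma p below 0.05 there were 2 of the 7, against 14.1% of all loci tested. The other 3 loci of the cluster were too low in shoot to be tested. The median log2 fold change of the 7 was 0.40, against -0.02 over all loci tested. Of the 7 estimates 6 were above 0, against 47% of all loci. With quantile scaling 5 were above 0, against 46.7% of all loci, and with median-of-ratios scaling 7, against 50.9%. Without mock shoot replicate 1 the median was -0.04 and 3 of 7 were above 0.

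Solyc08g079870 had 69.9, 148 and 119 normalized counts in PA shoot replicates 1 to 3, against 8.02, 58.0 and 79.7 in mock shoot. PA shoot replicate 1 lay below the highest mock shoot, so the groups overlapped. The log2 fold change was 1.63 ± 0.60 (SE), with a 95% interval of 0.32 to 2.93 (adjusted p = 0.237 by limma). Without mock shoot replicate 1 the log2 fold change was 0.65 (limma adjusted p = 0.226), and the ratio of mean values was 1.63 in place of 2.31.

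Solyc08g079900 had 15.9, 25.4 and 16.5 in PA shoot, against 10.3, 3.68 and 6.25 in mock shoot. It was the only one of the 7 whose PA and mock shoots did not overlap, with every PA shoot above every mock shoot, which was so for 8.15% of all loci tested. It passed the filter through the PA libraries, since its mock mean was 6.75. The log2 fold change was 1.45 ± 0.45 (SE), with a 95% interval of 0.48 to 2.42 (adjusted p = 0.151 by limma). These values rest on 13, 22 and 17 reads in PA shoot and 9, 4 and 4 in mock shoot. Without mock shoot replicate 1 the log2 fold change was 1.77 and the call was made (limma adjusted p = 0.0466, within 0.0397 to 0.497 over its alternatives that gave one).

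The other 5 loci of the shoot block lay closer to 0. Solyc08g079880 had 33.1, 40.4 and 48.5 in PA shoot, against 16.0, 46.0 and 37.5 in mock shoot. Solyc08g079890 had 34.3, 30.0 and 42.7 in PA shoot, against 17.2, 33.2 and 32.8 in mock shoot. Their log2 fold changes were 0.39 (95% interval -0.35 to 1.14) and 0.40 (95% interval -0.25 to 1.04). Both intervals reached from a small fall to a rise of about 1 on the log2 scale.

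Solyc08g079860 had the estimate nearest 0, with 18.4, 21.9 and 20.4 in PA shoot against 14.9, 23.9 and 23.4 in mock shoot, and a log2 fold change of -0.01 (95% interval -0.68 to 0.67). Solyc08g079850 had 20.8, 15.0 and 20.4 in PA shoot, against 3.44, 16.6 and 21.9 in mock shoot. Solyc08g079840 had 13.5, 15.0 and 14.5 in PA shoot, against 4.58, 17.5 and 20.3 in mock shoot. Their log2 fold changes were 0.69 (95% interval -0.47 to 1.85) and 0.24 (95% interval -0.82 to 1.30). The groups of all 5 overlapped, and without mock shoot replicate 1 the estimates of Solyc08g079840, Solyc08g079850 and Solyc08g079880 turned to -0.37, -0.04 and -0.05, that of Solyc08g079860 was -0.22 and that of Solyc08g079890 was 0.10.

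Mock shoot replicate 1 was the lowest of the 6 shoot libraries for 6 of the 7 loci, against 20.6% of all loci tested in shoot. It held 11.6% of the mean of the other 2 mock shoots for Solyc08g079870, 17.9% for Solyc08g079850, 24.2% for Solyc08g079840, 38.4% for Solyc08g079880, 52.1% for Solyc08g079890 and 62.8% for Solyc08g079860. Solyc08g079900 went the other way, at 208%. The median over all loci tested was 102%. The depth of that library, 6261271 reads, lay between those of the other 2 mock shoots.

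**Figure D3:**
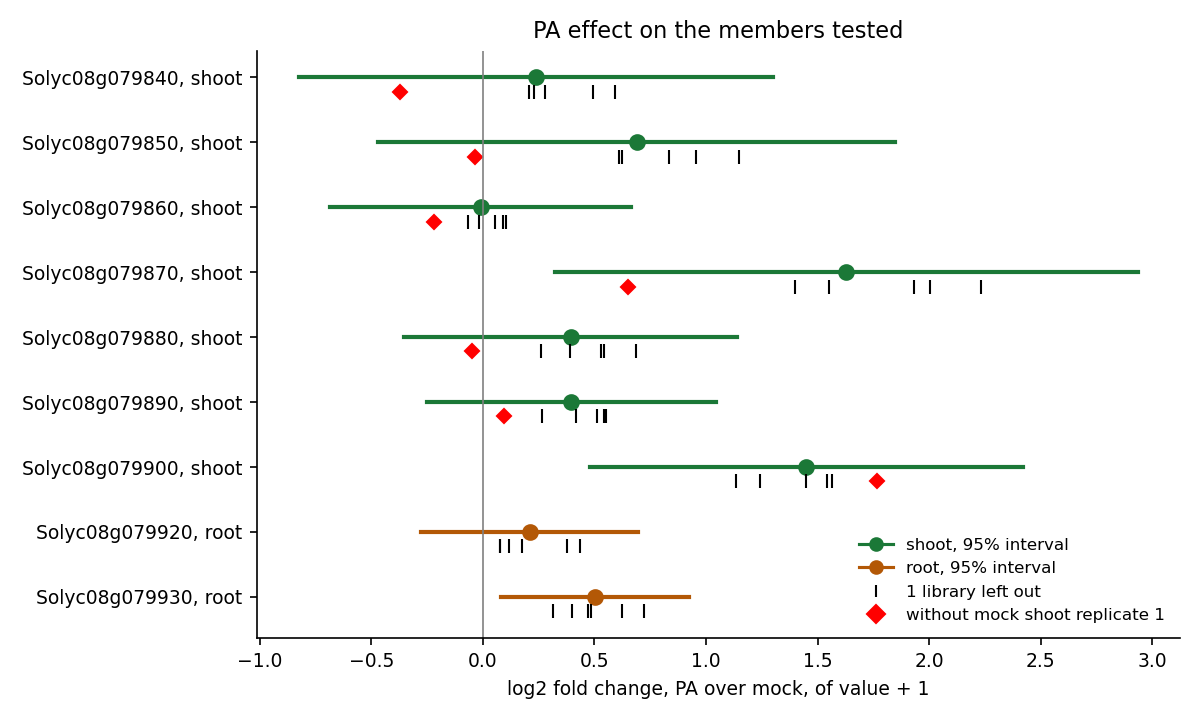
Log2 fold change of PA over mock, of value + 1, for the 7 loci tested in shoot and the 2 tested in root, with 95% intervals, and below each the estimates with 1 library left out (ticks) or without mock shoot replicate 1 (diamonds). For 6 of the 7 shoot loci the diamond is the leftmost mark, and for Solyc08g079900 it is the rightmost, at 1.77.

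The sum over the cluster does not rest on how reads were split between its loci, though reads dropped as shared are missing from it. It was 206, 295 and 282 normalized counts in PA shoot replicates 1 to 3, against 74.4, 200 and 222 in mock shoot. The groups overlapped, with PA shoot replicate 1 between mock shoot replicates 2 and 3, and the mean was 261 in PA shoot and 211 in mock shoot without mock shoot replicate 1. Solyc08g079870 made up 33.9, 50 and 42.3% of that sum in PA shoot, against 10.8, 29.0 and 35.9% in mock shoot. Without Solyc08g079870 the sum was 149 ± 13.5 in PA shoot and 117 ± 43.6 in mock shoot (SD, n = 3 each). In mock shoot it was 66.4 in replicate 1 and 142 in each of the other 2, so that without replicate 1 the means were 149 in PA shoot and 142 in mock shoot.

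**Figure D4:**
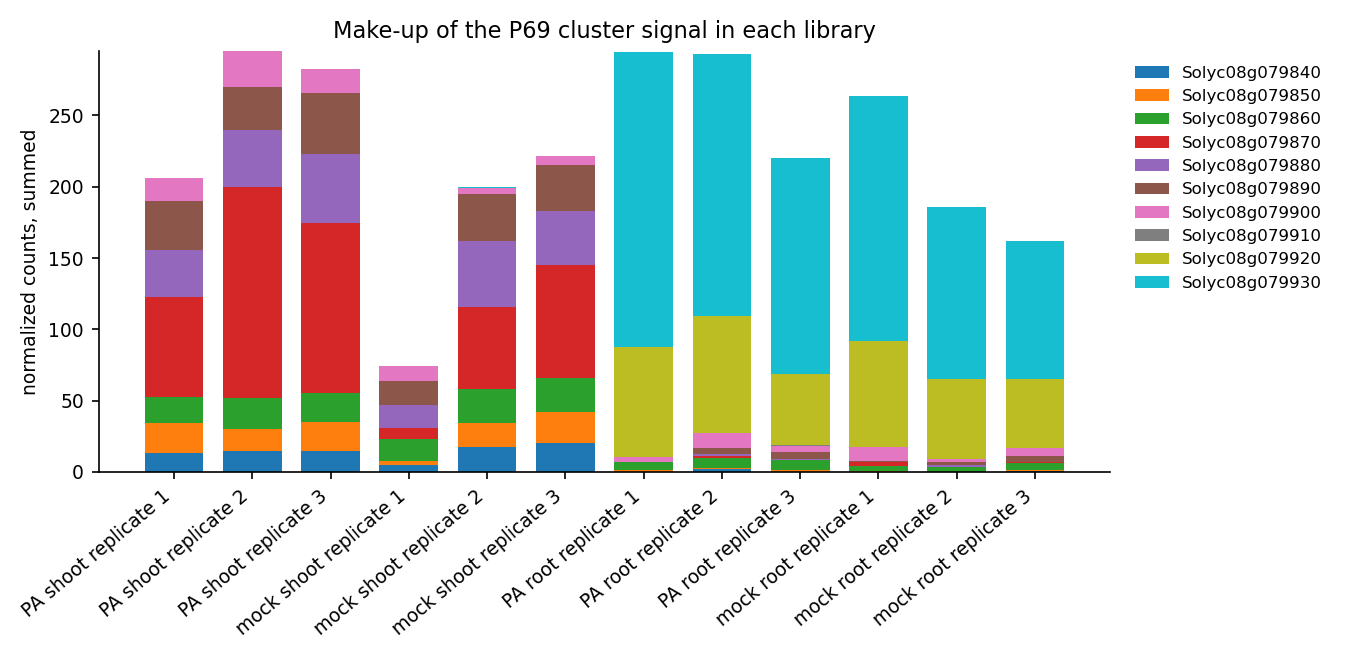
Normalized counts of the 10 loci stacked for each of 12 libraries. The shoot bars hold 7 loci and run from 74.4 in mock shoot replicate 1 to 295 in PA shoot replicate 2, and the root bars, from 162 to 295, are mostly Solyc08g079930 and Solyc08g079920.

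PA against mock in roots asked whether a leaf spray reached the root pair. Neither locus passed over all loci tested. By limma 0 of the 2 tested were called, against 1.58% of 14645 loci, with 0 also by edgeR and by DESeq2, and 1 of the 2 had an unadjusted limma p below 0.05, against 12.7% of all loci. Their median log2 fold change was 0.36, against 0.03 over all loci tested, of which 56.3% had an estimate above 0.

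Solyc08g079930 had 207, 183 and 152 normalized counts in PA root replicates 1 to 3, against 171, 121 and 96.7 in mock root. PA root replicates 1 and 2 lay above every mock root and replicate 3 below the highest, so the groups overlapped. The log2 fold change was 0.50 ± 0.19 (SE), with a 95% interval of 0.08 to 0.92 (adjusted p = 0.278 by limma). Solyc08g079920 had 77.7, 82.0 and 49.5 in PA root, against 74.4, 55.8 and 48.8 in mock root, with a log2 fold change of 0.21 (95% interval -0.28 to 0.69, limma adjusted p = 0.782). With each root library left out in turn the estimate of Solyc08g079930 ran from 0.31 (without mock root replicate 3) to 0.72 (without mock root replicate 1), and that of Solyc08g079920 from 0.08 (without PA root replicate 2) to 0.44 (without PA root replicate 3), with none called by limma. The intervals of the pair overlapped and a difference between the 2 loci in their response was not tested.

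The other 8 loci did not reach a mean of 10 in root and were not tested. Solyc08g079860 had 5.12, 7.37 and 6.85 in PA root, against 3.50, 3.38 and 4.36 in mock root, without overlap. Of the loci tested in root, 10.2% had this pattern in this direction, but loci as low as Solyc08g079860 are not in that share. Its values rested on 23 reads from PA roots and 13 from mock roots, a ratio of 1.72 with a 95% counting interval of 0.84 to 3.70. Solyc08g079900, whose PA shoots lay above its mock shoots, had 3.42, 11.1 and 4.57 in PA root and 9.62, 2.54 and 5.23 in mock root, a ratio of 1.07 (95% counting interval 0.56 to 2.07). Solyc08g079870 had 1 read over the PA roots and 4 over the mock roots, and for Solyc08g079840, Solyc08g079850 and Solyc08g079880 there were 1 to 5 reads in each root group. Solyc08g079890 had 10 reads over the PA roots and 8 over the mock roots.

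The root PA effect set against the shoot PA effect could be tested for 0 of the 10 loci, since none had a mean of at least 10 in both tissues; over all loci tested 0.377% of 13010 passed. With no filter on low values all 10 entered and 0 passed by limma, against 0.146% of all loci, with 1 at an unadjusted p below 0.05. That locus was Solyc08g079870, whose root effect minus shoot effect was -2.23 on the log2 scale (limma adjusted p = 0.507), at 1 and 4 root reads. A difference in the PA effect between tissues was not detectable for these loci at this depth.

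Loci with the pattern most like that of Solyc08g079930, the member of highest mean over the 12 libraries, were sought among 15336 others by Pearson correlation of log2(value + 1). All points share their libraries, and the contrast of tissues sets most of the value. Solyc02g082170 (0.9997), Solyc04g074880 (0.999) and Solyc01g009935 (0.999) came first, and Solyc08g079920 was at rank 17 with 0.997. With the tissue means taken out, Solyc02g082170 (0.965), Solyc01g009935 (0.950) and Solyc01g096140 (0.888) led, and Solyc08g079920 was at rank 333 with 0.604. In shoot, Solyc08g079930 had 1 read, in mock shoot replicate 2, where Solyc08g079920 had 0. That read enters this measure beside the root values, and a locus with no shoot read, such as Solyc08g079920, cannot follow it. Rank 333 therefore does not measure how alike the pair varied in root, and how far the read sets the other ranks was not tested. The same search was done for Solyc08g079870, the highest in shoot, a choice made after its values were seen. Over the 12 libraries Solyc01g009990 (0.985), Solyc04g072310 (0.984) and Solyc08g005680 (0.982) came first. Solyc08g079880 and Solyc08g079890 were there at ranks 417 and 1623, with 0.934 and 0.906. With the tissue means taken out, Solyc12g009980 (0.948), Solyc09g015830 (0.936) and Solyc10g078430 (0.928) led. Solyc08g079880 and Solyc08g079890, which follow Solyc08g079870 in the cluster, were at ranks 2686 and 3105, with 0.373 and 0.321. Root and shoot libraries entered alike, though Solyc08g079870 had only 1 read over the PA roots and 4 over the mock roots. Mock shoot replicate 1, at 8.02 against 58.0 and 79.7 in the other mock shoots, also stood far from the rest. How far these values set the ranks was not tested.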

How the data were processed

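The authors deposited a table of normalized signal, named normalized counts, for 34688 loci in 12 columns, of which 0 were left unused. Messenger RNA of 2 µg total RNA per sample was made into 3′-end libraries (Lexogen QuantSeq), per the labels' protocols. Tools named, per the submitters' processing notes, were STAR 2.6.1d, Trimmomatic 0.38, FastQC 0.11.8 and DESeq2 without a version. The sources used here give no counter, build or annotation. Dividing each column by its smallest value above 0 gave whole numbers, within 0.01, for 100% of values, so reads were recovered.

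Groups came from the sample titles. The labels name pools of plants and no more, so p-values may reflect technical spread only. No pair of replicates agreed within sampling noise (chi-square per degree of freedom 3.84 to 9.92). The main test was limma 3.58.1 (R 4.3.3) with an intensity trend on log2(value + 1), two-sided, fitted over all loci with a mean of at least 10, in each tissue for the interaction, with Benjamini-Hochberg adjustment over all of them and a threshold of 0.05. Each fit was tested on simulated counts. edgeR 4.0.16 and DESeq2 1.42.0 were run on whole reads. Other alternatives were pseudocounts of 0.5 and 5, no filter or one of 50, quantile and median-of-ratios scaling, sample quality weights, one fit over all 12 libraries, a replicate block, and each library left out. Intervals on ratios are exact conditional intervals on reads; they and limits from 0 reads (3 reads) cover counting error only. All 10 members are named, with the nearest flanks, those called with PA, and the 3 loci most like the highest member. Solyc08g079970, Solyc08g079980 and Solyc08g080060 were named after their values were seen, and the other flanks called between tissues are counted. Members, picked by identifier, and lists were chosen with earlier results of these data known. Plots used Python 3.11.15 and matplotlib 3.10.9.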

Additional observations from a re-analysis of the deposited data

How the results depend on the processing

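Of the alternatives to the single-locus results, 225 kept direction and side of the threshold, 3 gained a call and 9 turned. In shoot, 1 member was called in place of 0 with a replicate block (Solyc08g079870, limma adjusted p = 0.0318, within 0.0318 to 0.675), with sample quality weights (Solyc08g079900, 0.0397) and without mock shoot replicate 1 (Solyc08g079900, 0.0466), so leaving out libraries gave 0 to 1. Between mock tissues a filter of 50 left 1 member tested, and it was called, in place of 6. Whether same-numbered samples share plants or a batch is not stated, and the numbers were not treated as pairs, since their deviations correlated at only -0.05 to 0.10. As a hint from the data, not the design, 5 of 6 shoot, 3 of 6 root and, across tissues, 6 of 6 mock samples were closest to their own number. The block raised the calls over all loci to 376 from 229 in shoot and to 441 from 232 in root, and changed no other call of a member.

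The PA estimate in shoot turned for Solyc08g079840 with quantile scaling (-0.0087), with sample quality weights (-0.060) and without mock shoot replicate 1, with a range of -0.37 to 0.59 over libraries left out. Without that library those of Solyc08g079850 and Solyc08g079880 also turned (-0.036 and -0.047, the low ends of ranges up to 1.15 and 0.69). Solyc08g079860, at -0.0091, turned with median-of-ratios scaling (0.012) and with libraries left out (-0.22 to 0.10). The cause was not tested. With no filter, Solyc08g079840 and Solyc08g079850 were also called lower in mock root than in mock shoot (limma adjusted p = 0.000796 and 0.00314). Quantile scaling set the median of all loci between tissues at 0.15, against 0.02, and turned no member. Loci called over all also moved with single libraries, from 62 to 383 in shoot and from 14 to 517 in root. DESeq2 gave no adjusted p in shoot for 6 of the 7 members, all but Solyc08g079870, and these are in no count above. For the interaction, alternatives other than no filter held no member. At 1 to 23 reads per root group, the PA effect on the shoot block in root was tested only with no filter, where limma called 0 members.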

Other observations

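Solyc08g079900 was the member of the shoot block with the least tissue preference in mock plants. Its ratio of root over shoot was 0.32 in PA plants, with 22 root and 52 shoot reads (95% counting interval 0.19 to 0.54), and 0.88 in mock plants, with 20 root and 17 shoot reads (0.44 to 1.79). For Solyc08g079870 the ratio was 0.0025 (6.23e-05 to 0.0139) in PA plants, with 1 root and 308 shoot reads. In mock plants it was 0.025 (0.0066 to 0.065), with 4 root reads, 3 of them in replicate 1, and 121 shoot reads. Mock shoot replicate 1, which stood apart, is in the mock ratios, with 7 reads of Solyc08g079870 and 9 of Solyc08g079900. Whether PA moved these ratios was not tested beyond the comparison of PA effects between tissues, in which neither locus passed.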
